A study of Mus musculus with 3 samples.

Results

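The tags of an immunoprecipitation of nuclear factor I (NFI) were set against those of non-precipitated input DNA along mouse genes. Both libraries came from wild-type mouse embryonic fibroblasts (MEFs), primary cells of the C57BL/6 strain taken from embryos of day 14.5 and used at passages 6 to 7. The antibody (H300) recognises the NFI proteins as a group. Members were all protein-coding genes of the annotation on chromosomes 1 to 19, 21418 of 22380, of which 10669 lie on the plus strand and 10749 on the minus strand. The rule that selects them uses the annotation and no measured value. The series holds 3 libraries, these 2 and an NFI ChIP in NFI-C knock-out MEFs of the same strain and age, whose values are given beside some results. The title of that sample names the knock-out while its description calls the cells wild-type. The title was followed, and knock-out values rest on it. Each condition had a single library without replicates. No test was therefore made, and the values describe these libraries. Genomic DNA holds no RNA, so the cell type could not be checked against its markers, and nothing in the labels says how many embryos gave the cells.

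NFI proteins bind DNA as dimers at a palindrome of the arm TTGGCA and its reverse complement, and are encoded by Nfia, Nfib, Nfic and Nfix in mammals. In ChIP-Seq, DNA bound by the protein should be over-represented in the precipitate relative to the input, which samples the same sheared chromatin without selection. Many mammalian promoters lie in CpG islands, stretches rich in G, C and CpG that are mostly unmethylated and held in open chromatin. Input DNA is itself not uniform, since open chromatin shears more readily and since amplification and sequencing favour some base compositions over others.

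At most 1 tag per position and strand was counted, by its 5′ end. On chromosomes 1 to 19 the wild-type ChIP kept 3186944 tags, the input 3920580 and the knock-out ChIP 2978316, with 2.91, 1.32 and 3.46 uniquely mapped reads per tag. A level is given as the fold over the genome average of the same library, which was 1.33 tags per kb in the ChIP and 1.64 in the input. The ratio is ChIP over input after scaling both to their totals, with its 95% exact binomial interval in brackets. Intervals cover counting error only. A tag in windows of several genes was counted for each, and 2637 genes shared a promoter window with another.

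The transcription start site (TSS) was the place where both libraries differed most. In the 1 kb around the outermost TSS of the 21418 genes, the input stood at 6.66 times its genome average and the ChIP at 1.49 times. The ratio was 0.224 (0.222 to 0.226). It was below 1 on all 19 chromosomes, from 0.175 on chromosome 12 to 0.276 on chromosome 7. The knock-out ChIP stood at 1.68 times its average, a ratio of 0.252 to the same input. Both immunoprecipitates were thus raised at the TSS over their own genome average, and both were raised far less than the input. Divided by the ratio of intergenic windows with the same GC content, it was 0.662, over the 16495 genes whose GC content such windows covered. The genes left out included the 1016 at 70 to 80% G and C, with a ratio of 0.0575. They also included most of the 5367 at 60 to 70%, a class with a ratio of 0.118. The set of genes thus changed as well, and 0.662 holds for promoters with less G and C. Without windows in which the input exceeded 10 times its average, the TSS ratio was 0.463. These windows were left out by their input, the divisor of the ratio, a choice that itself favours a higher ratio.

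In bins of 200 bp, the input rose from 1.20 times its average 5 kb before the TSS to 9.73 times in the first 200 bp of the gene. The ChIP reached its highest level, 1.62 times, in the 200 bp before the TSS and fell to 1.35 times between 200 and 400 bp inside the gene. Its summit thus lay upstream of the summit of the input. The lowest ratio, 0.149 (0.145 to 0.152), was found in the first 200 bp of the gene. From 2 kb inside the gene onwards the ratio stayed between 0.891 and 0.952.

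**Figure D1:**
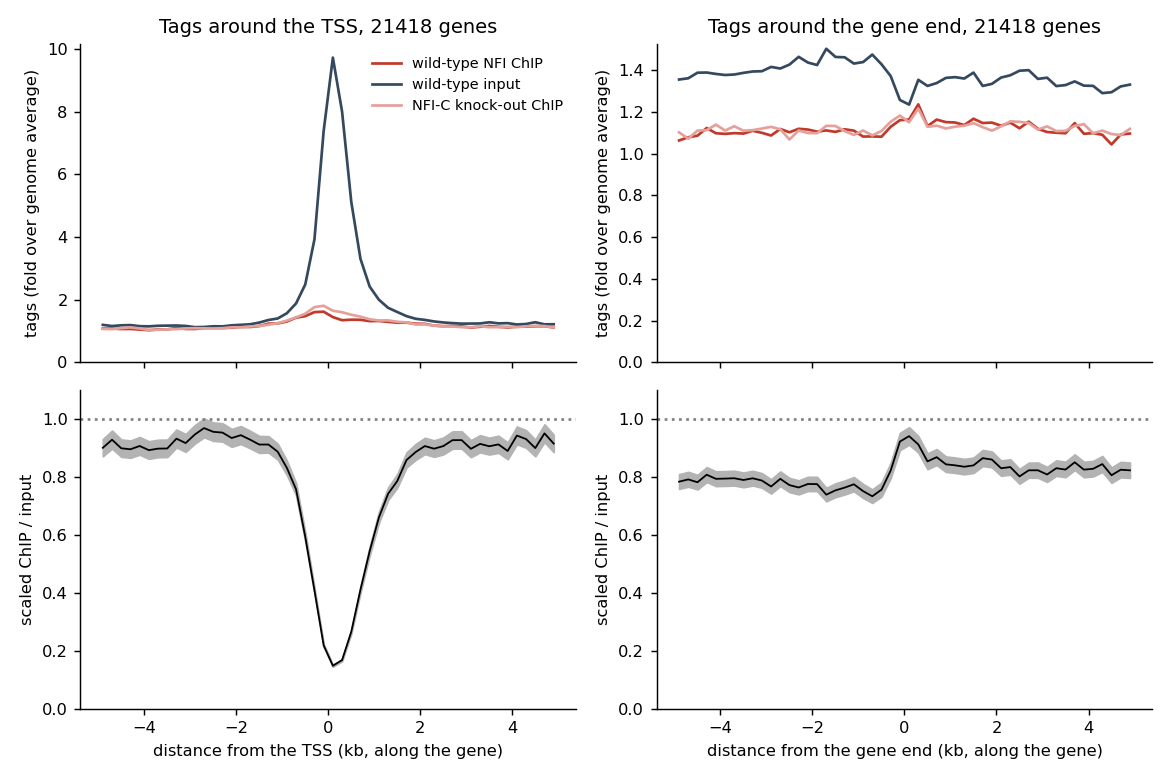
Tags in 200 bp bins from 5 kb before to 5 kb after the TSS (left) and the gene end (right) of 21418 genes. Upper panels give the level of each library in fold over its genome average, lower panels the scaled ratio of wild-type ChIP to input with its 95% counting interval in grey. The input peaks at 9.73 times at the TSS while both ChIP libraries stay below 2 times, and the ratio falls to 0.149.

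The strand of the tags separated the libraries as well. Input tags on the strand of the gene were at 9.51 and 9.89 times the average in the bins just before and just after the TSS, and those on the opposite strand at 9.57 and 9.59 times between 0 and 200 bp and between 200 and 400 bp inside the gene. The strands of the input thus peaked about 1 bin apart around a place just inside the gene. In the ChIP, tags on the strand of the gene were highest between 400 and 200 bp before the TSS, at 1.66 times, and those on the opposite strand in the 200 bp before it, at 1.72 times.

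Genes on the plus and the minus strand of the chromosome gave nearly the same values. The TSS ratio was 0.227 (0.224 to 0.231) for plus-strand genes and 0.221 (0.218 to 0.224) for minus-strand genes, and the ratio between both was 1.03 (1.01 to 1.05). With every uniquely mapped tag counted it turned to 0.916. The gene body ratio was 1.02 in both groups.

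At the gene end, both libraries were close to the genome average. The ChIP stood at 1.16 times and the input at 1.31 times in the 1 kb around the end, a ratio of 0.881 (0.869 to 0.894). The ratio lay below 1 on 17 of 19 chromosomes, from 0.742 on chromosome 17 to 1.01 on chromosome 3. The input was highest, at 1.50 times, between 1800 and 1600 bp before the end and fell to 1.24 times in the 200 bp after it, where the ratio reached 0.942. In the 5555 genes under 5 kb, the 5 kb before the end include the TSS of the same gene. The part of these TSS in the values before the end was not tested. The ChIP had its highest level, 1.24 times, between 200 and 400 bp after the end. From 1 to 5 kb beyond the end the ratio was 0.832, and from 1 to 5 kb before the TSS it was 0.921. With every uniquely mapped tag counted, the gene end ratio dropped to 0.570. In the 7851 genes with no other gene within 5 kb it was 0.982 (0.957 to 1.01), an interval that includes 1.

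Over gene bodies, from 1 kb after the TSS to 1 kb before the end of the 17415 genes longer than 3 kb, the ChIP stood at 1.09 times and the input at 1.07 times, a ratio of 1.02 (1.02 to 1.02) that fell below 1, to 0.927, when the libraries were scaled to tags more than 10 kb from every annotated gene. That scaling lowered every ratio by a factor of 0.907, or 0.14 on the log2 scale. The ratio of the gene body lay below 1 on 6 of 19 chromosomes. Divided into 20 equal parts, genes had a ratio of 0.426 in the first part, 0.925 in the second and 1.00 in the third. It stayed between 1.01 and 1.04 from the fourth to the seventeenth part and fell to 0.972 in the last.

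Exons and introns differed. Exonic bases of protein-coding genes had 2.29 times the average in the input and 1.15 times in the ChIP, a ratio of 0.499 (0.496 to 0.503). Intronic bases had 1.08 and 1.10 times, a ratio of 1.02. Bases more than 10 kb from every annotated gene were at 0.834 times in the input and 0.920 times in the ChIP, a ratio of 1.10. The exonic value includes the first exons at the TSS.

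Over gene bodies, the level of the input changed with gene length far more than that of the ChIP. The input fell from 1.68 times the average in the 1552 genes of 3 to 5 kb to 1.27 times in the 6536 genes of 5 to 20 kb, 1.15 times in the 4704 genes of 20 to 50 kb, 1.10 times in the 3278 genes of 50 to 150 kb and 0.984 times in the 1345 genes over 150 kb. The ChIP ranged from 1.06 to 1.13 times over the same classes. The ratio therefore rose with length, from 0.644 (0.621 to 0.668) through 0.848, 0.962 and 1.03 to 1.08 (1.07 to 1.08). Between the longest class and genes of 5 to 20 kb it differed 1.27-fold (1.26 to 1.28). Scaled to tags far from genes, the longest class stood at 0.976, so that no class lay above 1 while their order was kept. Bodies begin 1 kb after the TSS, so that those of short genes lie close to the promoter. Between 1000 and 1200 bp after the TSS of all genes, the input was still at 2.00 times and the ratio at 0.661. The part of this in the order by length was not tested.

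At the TSS, the input rose with gene length up to 150 kb and was lower again in the longest genes. The 5555 genes under 5 kb had 3.62 times the average in the input and 1.29 times in the ChIP, a ratio of 0.355. Genes of 50 to 150 kb had 9.53 and 1.56 times, a ratio of 0.164, and those over 150 kb had 8.31 and 1.37 times, a ratio of 0.165. The intervals of these longest classes overlapped. At the gene end the ratio was 0.811 in genes under 5 kb, 0.839 in genes of 5 to 20 kb, 0.937 in genes of 20 to 50 kb and 0.998 and 0.995 in the longest classes.

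**Figure D2:**
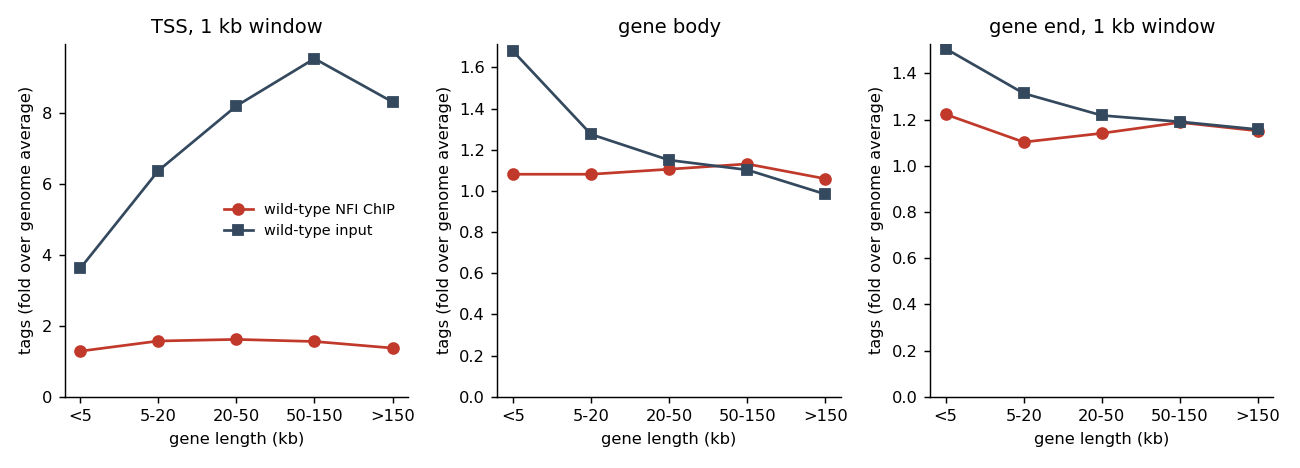
Level of wild-type ChIP and input, in fold over the genome average of each library, against gene length class in kb, in the 1 kb around the TSS, in gene bodies and in the 1 kb around the gene end. In gene bodies the input falls from 1.68 to 0.984 times while the ChIP stays between 1.06 and 1.13 times.

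Promoters were divided by the CpG content of the 1 kb around the TSS. The 9656 CpG-rich promoters, with at least 50% G and C and an observed over expected CpG of at least 0.6, had 12.4 times the average in the input and 1.79 times in the ChIP, a ratio of 0.145 (0.143 to 0.147). The 7735 CpG-poor promoters, with an observed over expected CpG under 0.35, had 1.02 and 0.956 times, a ratio of 0.938 (0.914 to 0.963). The 4027 promoters between them had 3.72 and 1.80 times, a ratio of 0.484. At the outermost TSS the ratio was thus lowest at CpG-rich promoters, and the ChIP level itself was higher at CpG-rich and intermediate promoters than at CpG-poor ones. Between CpG-rich and CpG-poor promoters the ratio differed by a factor of 0.154 (0.150 to 0.159) over 17391 genes. It was 0.478 relative to intergenic windows of the same GC content, over the 12702 genes these covered. It was 0.311 over the 11745 genes left without windows over 10 times the input average, a choice made on the input itself. At every annotated TSS it was 0.351, with each TSS given the CpG class of the outermost TSS of its gene. The ratio was then 0.187 in genes classed as CpG-rich and 0.532 in genes classed as CpG-poor. Other TSS of these genes were not classed by their own sequence, so that 0.532 need not hold for CpG-poor sites. Divided by intergenic windows of the same GC content, CpG-poor promoters stood at 1.03.

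Within CpG-rich promoters the ChIP peaked at 2.05 times the average between 400 and 200 bp before the TSS and was at 1.63 times in the first 200 bp of the gene, where the input was at 18.5 times and the ratio at 0.0883. In CpG-poor promoters the ChIP reached at most 1.01 times and the input at most 1.21 times in any bin, and the ratio stayed between 0.766 and 1.04 across the whole 10 kb.

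**Figure D3:**
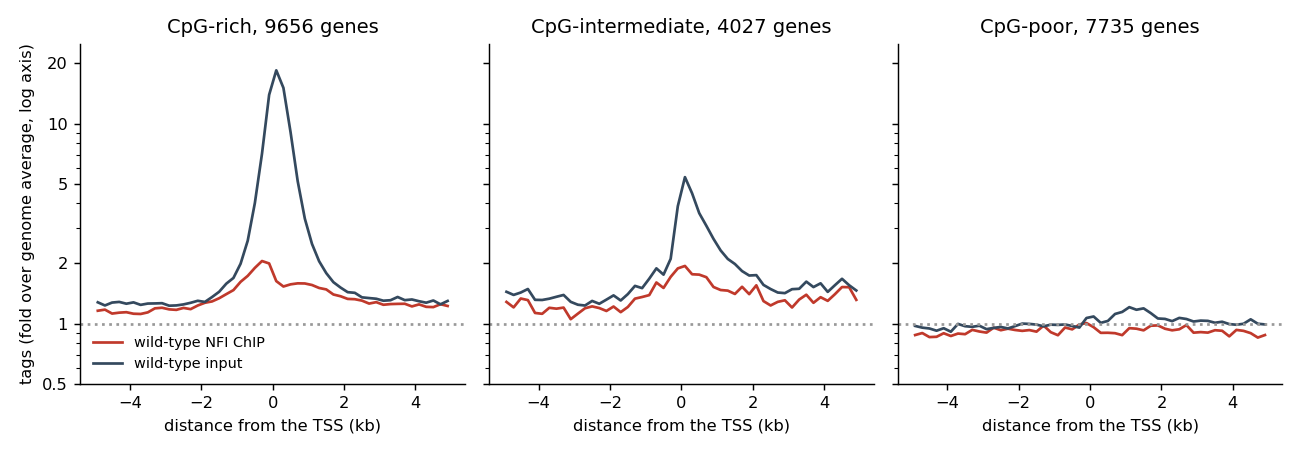
Level of wild-type ChIP and input in 200 bp bins around the TSS, in fold over the genome average on a log axis, for CpG-rich, intermediate and CpG-poor promoters. The highest input bin falls from 18.5 times in the first group through 5.40 times to 1.21 times, and the ChIP in CpG-rich promoters is highest at 2.05 times, upstream of the input peak.

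The same order was seen by GC content of the 1 kb around the TSS. At 30 to 40% G and C the TSS ratio was 1.12, and in intergenic 1 kb windows of that GC content it was 1.22. At 50 to 60% it was 0.319 against 0.803, at 60 to 70% it was 0.118 against 0.171, and at 70 to 80% it was 0.0575 against 0.0871. The ratio fell with GC content also away from genes. At 60 to 70% the input stood at 13.5 times the average at the TSS and at 1.98 times in the 887 intergenic windows, and the ChIP at 1.60 and 0.339 times. Only 26 intergenic windows reached 70 to 80%. GC content thus moved with the ratio, and its part in the result was not tested beyond the values divided by intergenic windows. With every uniquely mapped tag counted, the TSS ratio was 0.256.

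H3K4me3 is the histone mark of active and poised promoters, and H3K36me3 is laid down along transcribed genes. The authors deposited boundaries of regions rich in these marks, and the regions are broad, with a mean of 30344 bp for H3K4me3. Of all TSS, 13740 lay inside an H3K4me3-rich region and had 1.87 times the average in the ChIP and 9.74 times in the input. The 7678 TSS outside had 0.811 and 1.16 times. The ChIP level at the TSS was thus above its genome average inside these regions and below it outside. H3K27me3, a mark of Polycomb repression, gave the same direction, since the 15202 TSS inside its broad regions had 1.66 times the average in the ChIP and 8.12 times in the input, and the 6216 outside had 1.08 and 3.10 times.

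This held also where CpG was poor. The 1511 CpG-poor TSS inside H3K4me3-rich regions had 1.54 times the average in the ChIP and 1.64 times in the input, and the 6224 outside had 0.814 and 0.868 times. Their ratios were 0.942 (0.898 to 0.987) and 0.937 (0.908 to 0.967), with overlapping intervals. The ChIP and the input therefore differed by about the same factor between both groups, and the ratio did not. Of the CpG-rich TSS, the 307 outside H3K4me3-rich regions had 0.651 times in the ChIP but 5.19 times in the input, a ratio of 0.125. Bodies of genes whose TSS lay in H3K36me3-rich regions had 1.22 times the average in both libraries, against 1.03 times in the ChIP and 0.999 times in the input for the other genes.

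To show the contrast in CpG, the 200 bases before the TSS are printed in mm9 for 3 promoters with more ChIP than input and then for 2 with input tags alone, with each CpG in capitals.
Il6, chr5:30339501-30339700, plus strand: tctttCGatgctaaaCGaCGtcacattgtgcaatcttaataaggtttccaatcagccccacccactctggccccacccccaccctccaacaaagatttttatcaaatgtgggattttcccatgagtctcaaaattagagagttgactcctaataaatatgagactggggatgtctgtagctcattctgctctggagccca
1700092K14Rik, chr11:114059372-114059571, plus strand: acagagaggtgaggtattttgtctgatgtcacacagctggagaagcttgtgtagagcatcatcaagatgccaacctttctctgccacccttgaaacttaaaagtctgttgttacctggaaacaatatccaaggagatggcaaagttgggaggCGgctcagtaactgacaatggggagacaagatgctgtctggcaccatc
Olfr1152, chr2:87707950-87708149, plus strand: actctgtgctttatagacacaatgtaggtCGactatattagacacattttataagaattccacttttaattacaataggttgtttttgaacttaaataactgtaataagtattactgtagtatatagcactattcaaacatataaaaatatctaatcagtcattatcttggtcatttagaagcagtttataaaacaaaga
Atf2, chr2:73730697-73730896, minus strand: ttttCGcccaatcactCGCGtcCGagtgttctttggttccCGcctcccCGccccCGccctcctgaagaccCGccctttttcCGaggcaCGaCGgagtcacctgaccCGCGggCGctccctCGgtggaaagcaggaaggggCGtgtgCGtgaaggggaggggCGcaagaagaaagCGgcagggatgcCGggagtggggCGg
Bmi1, chr2:18598445-18598644, plus strand: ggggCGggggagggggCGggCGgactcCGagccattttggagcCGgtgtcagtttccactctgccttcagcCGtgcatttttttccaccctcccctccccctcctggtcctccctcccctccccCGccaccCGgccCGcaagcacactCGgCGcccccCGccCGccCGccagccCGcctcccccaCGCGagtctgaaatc

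The stretches of Il6, 1700092K14Rik and Olfr1152 held 3, 1 and 1 CpG and 45%, 47% and 26% G and C. Those of Atf2 and Bmi1 held 21 and 17 CpG and 67.5% and 72% G and C. These examples are among the more contrasting ones. The CpG classes were set on 1 kb around the TSS, and the 200 bases before the lower promoters Nagpa, Acbd6, 2810432L12Rik and Tnk2 held 4, 7, 8 and 10 CpG, while those before the higher promoters Musk, Cst7 and Muc20 held 5, 4 and 3.

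Single promoters were compared in windows of 1 kb on both sides of the TSS. Of 21418 windows, 13050 held at least 10 tags of both libraries together and were compared by the size of the ratio alone. Of these, 401 (3.07%) were at least 2-fold higher in the ChIP and 9548 (73.2%) at least 2-fold lower. The median ratio was 0.256. Of the 9368 CpG-rich promoters compared, 51 were higher and 8001 lower, and of the 1241 CpG-poor ones 199 were higher and 265 lower, with medians of 0.198 and 1.03. The compared windows were most of the 9656 CpG-rich promoters but few of the 7735 CpG-poor ones. Near the average level, a window passes the minimum more easily with an excess in either library. The 1241 thus do not stand for all CpG-poor promoters, and both sets of counts are not alike. The higher windows held few tags, with a median of 12 in both libraries together, and the 95% interval of their ratio lay above 1 in 80 of 401. Among the lower windows it lay below 1 in 7985 of 9548. The number of higher windows was 19 with a minimum of 20 tags and 1587 with every uniquely mapped tag. The lower windows were 7353 of 8342 with a minimum of 20 tags and 11634 of 21418 with no minimum, so that the share lower depends on the minimum.

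The 10 promoters with the highest lower limit of the ratio, among windows with an input of at most 10 times the average, were all CpG-poor. This rule sets no minimum of tags, and 5 of them (E030002O03Rik, Musk, Olfr350, Cd101 and Olfr1152) held fewer than the 10 tags needed for the counts above. The promoter of Il6 (ENSMUSG00000025746.7, chromosome 5, 30339701 to 30346508), which encodes the inflammatory cytokine interleukin-6, had 18 tags in the ChIP, 2 in the input and 16 in the knock-out ChIP. Its ratio was 11.1 (2.65 to 98.4). The promoter of 1700092K14Rik (ENSMUSG00000078600.1, chromosome 11, 114059572 to 114060513), a gene without an established role, had 21, 1 and 14 tags, a ratio of 25.8 (4.15 to 1068). Both were thus high in both immunoprecipitates and low in the input.

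The other 8 had 0 input tags, so that the fold was taken against a floor of 3 tags. The floor covers no counting error in the ChIP, and the lower limit of the ratio was smaller than this fold. 3300002I08Rik had 13 ChIP and 2 knock-out tags, 5.33-fold above the floor with a lower limit of 3.75. Its palindrome with 2 mismatches lay 424 bp inside the gene. Muc20, which encodes a mucin, had 11 ChIP and 4 knock-out tags, 4.51-fold above the floor with a lower limit of 3.09. Its palindrome with 1 mismatch lay 550 bp inside the gene. Cst7, which encodes an inhibitor of cysteine proteases, had 10 and 2 tags, 4.10-fold above the floor with a lower limit of 2.76. Musk, the receptor kinase of the neuromuscular junction, had 9 and 1 tags. E030002O03Rik had 9 and 4 tags and the olfactory receptor gene Olfr350 had 9 and 2. Cd101, which encodes a surface protein of leukocytes, had 8 and 0 tags, and the olfactory receptor gene Olfr1152 had 8 and 1. The knock-out ChIP held fewer tags than the wild-type one in all 8, but these windows were chosen on the wild-type values.

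The 10 promoters with the lowest upper limit were all CpG-rich and had 0 ChIP tags. The rule left out windows with more input, so that these had 31 or 32 input tags, close to its limit. They were Atf2, a transcription factor of the CREB and ATF family (chromosome 2, 73654566 to 73730696), Bmi1, a Polycomb protein (chromosome 2, 18598645 to 18608256), Nagpa, an enzyme of lysosomal protein sorting, Nfatc1, a transcription factor activated through calcineurin, Nfix, a member of the NFI family, and Tnk2, a tyrosine kinase, with 32 input tags each, and 2810432L12Rik, Acbd6, Begain and Ccar1 with 31. With the ChIP set to the same floor, it was 8.67-fold lower than the input in the first 6 and 8.40-fold lower in the other 4. The upper limits of their ratios were 0.150 and 0.155, which allow smaller folds. The knock-out ChIP had from 0 to 10 tags in these windows, with 10 at Atf2, 2 at Nfix, 1 at Bmi1 and 0 at Tnk2. Among the windows over 10 times the input average, of which there were 2906, the one of Srsf2, a splicing factor, had 2 ChIP and 82 input tags, and that of Atp2a2, the calcium pump of the sarcoplasmic reticulum, had 3 and 78. The window of Srsf2 was shared with Mfsd11.

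Of gene bodies, 13973 held at least 20 tags, and 205 (1.47%) were at least 2-fold higher and 937 (6.71%) at least 2-fold lower in the ChIP, with a median ratio of 0.992. By the same rule for the limits, which sets no minimum of tags, the highest were C530028O21Rik with 12 ChIP and 1 input tags, Cks2, a partner of cyclin-dependent kinases, with 7 and 0, both short of the 20 tags needed for the counts above, Duoxa1, a maturation factor of a dual oxidase, with 28 and 9, Vcam1, an adhesion molecule of activated endothelium, with 61 and 28, and Uchl3, a ubiquitin hydrolase, with 85 and 45. Vcam1 had a ratio of 2.68 (1.69 to 4.36) and Uchl3 one of 2.32 (1.60 to 3.41), and the knock-out ChIP had 36 and 77 tags in these bodies. The promoter window of Uchl3 went the other way, with 8 ChIP and 32 input tags.

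Among the lowest bodies by these limits were those of short genes, some of them encoding transcription factors. Nkx2-1, a transcription factor of thyroid, lung and forebrain, had 0 ChIP and 44 input tags. With the ChIP set to the floor of 3 tags it was 11.9-fold lower, and the upper limit of the ratio was 0.108, which allows a smaller fold. Dmrta2 had 0 and 41, Insm2, a zinc finger factor of neuroendocrine cells, had 0 and 37, and Gm996 had 0 and 30. All 4 were between 3 and 6 kb long, and with 1 kb left out at both ends their bodies lay close to the promoter.

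Gene lists were compared with these backgrounds. Members named from a list are among those with the most tags in the promoter window, a choice that favours windows with much input. Their ratios do not stand for the list. Of 22 lists, 19 had a summed promoter ratio whose interval lay below 1, and for the other 3, the olfactory receptors, the vomeronasal receptors and the defensins, it included 1. No list had an interval above 1, and scaled to tags far from genes that of the olfactory receptors also lay below it. TGF-beta and BMP signalling and the actin cytoskeleton, with the lowest ratios, had the highest mean GC content around the TSS, 64.2% and 62.6%. The vomeronasal receptors, olfactory receptors and defensins had the lowest, 37.0%, 39.5% and 45.0%. Over bodies, 10 lists had an interval above 1 and 4 below. Scaled to tags far from genes, 2 lay above 1, the vomeronasal receptors and the synaptic genes, and 12 below.

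Lists of genes used by every or by dividing cells stood at 2.85 times the average in the input over promoter windows for histones and at 5.33 to 7.25 times for the others. Of 72 promoters of cytosolic ribosomal proteins compared, 47 were lower and 0 higher, with a median of 0.389, above that of all promoters. Rpl10a had 3 ChIP and 45 input tags and Rpl19 had 7 and 39. Of 36 proteasome promoters, 29 were lower, and Psma7, a subunit of the core particle, had 1 ChIP and 67 input tags in a window shared with Ss18l1. Of 66 promoters of the respiratory chain and ATP synthase, 40 were lower and 2 higher, and Cox4i1, a subunit of cytochrome c oxidase, had 5 and 49 tags in a window shared with Cox4nb, while Ndufa13, a subunit of complex I, had 13 and 51 in one shared with Tssk6. Of 58 promoters of spliceosomal proteins 36 were lower, with a median of 0.308. Of 39 promoters of DNA replication genes 26 were lower, and Rrm2, a subunit of ribonucleotide reductase, had 3 and 48 tags. Of 41 promoters of replication-dependent histones 22 were lower and 2 higher, and Hist1h2ab had 13 ChIP and 19 input tags. The share lower was under the 73.2% of all promoters in each of these lists except the proteasome.

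Genes of signalling, cytoskeleton and matrix, which fibroblasts are known for, included the lists with the lowest summed ratios, though not each of these lists was low. TGF-beta and BMP signalling genes, of which 44 of 47 promoters were lower, had a summed ratio of 0.160 (0.136 to 0.187) and a median of 0.145, or 0.159 with promoters lacking ChIP tags placed at the floor. Ski, a repressor of this pathway, had 4 ChIP and 69 input tags, and Acvr2a, an activin receptor, had 3 and 65. Of 40 promoters of actin cytoskeleton and adhesion genes, 36 were lower, with a median of 0.168. Pfn1, which encodes the actin-binding protein profilin, had 2 and 61 tags and Cfl1, the actin-severing cofilin, had 7 and 54. Collagen promoters were lower in 15 of 27 (55.6%), under the 73.2% of all promoters, with a median of 0.410, and Col4a1 and Col4a2, which share a promoter window, had 5 and 57 tags. Fibroblast matrix and mesenchymal genes were lower in 26 of 41 (63.4%), also under that share, with Loxl1, an enzyme that cross-links elastin, at 2 and 52 and P4ha1, a collagen hydroxylase, at 7 and 47. The bodies of this last list stood at 1.45 times the average in the ChIP and 1.28 times in the input, a ratio of 1.13 (1.08 to 1.18), and of 1.02 (0.982 to 1.07) scaled to tags far from genes.

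Genes known from other tissues had summed promoter ratios from 0.260 for the synaptic genes to 1.12 for the vomeronasal receptors. Olfactory receptors, 1081 genes of the nasal epithelium, had 0.765 times the average in the ChIP and 0.755 times in the input over their promoter windows, a ratio of 1.01 (0.958 to 1.07). Only 53 of their windows held enough tags to be compared, and these do not stand for all 1081. Of the 53, 15 were higher (28.3%, against 3.07% of all) and 7 lower (13.2%, against 73.2% of all). At levels under the average, a window passes the minimum more easily with an excess in either library, so that these shares are no result about the receptors. Vomeronasal receptors, 319 genes of the pheromone-sensing organ, had 0.598 and 0.535 times, and their bodies had a ratio of 1.25 (1.18 to 1.32), with 7 of 80 bodies higher against 1.47% of all bodies. Intergenic 1 kb windows of 30 to 40% G and C had a ratio of 1.22, inside this interval. Mean GC content around the TSS of these receptors was 37.0%, and its part in the body ratio was not tested. Cytochrome P450 genes had 4 of 11 promoters lower, haematopoietic markers 7 of 14, liver secreted proteins 3 of 13, keratins 3 of 10 and muscle contraction genes 7 of 20, shares under the 73.2% of all promoters. Members with CpG-rich promoters were only 0% of these lists for keratins and up to 8.16% for muscle contraction. Of all compared CpG-poor promoters, 21.4% were lower. Few members of these lists held enough tags, so that these shares are no result about the lists. None of the 53 defensin windows held 10 tags. Synaptic adhesion molecules and glutamate receptors, among the longest genes of the genome, had 26 of 33 promoters lower (78.8%, against 73.2% of all). Their promoter median was 0.129, below that of the TGF-beta list. With promoters lacking ChIP tags placed at the floor it was 0.217, above that list. Their body ratio was 1.12 (1.11 to 1.14) over 59 genes. Dlgap2, a scaffold of the postsynaptic density 751820 bp long, had 2 ChIP and 40 input tags at the promoter and 1099 and 1313 in the body, a ratio of 1.03. Potassium and sodium channel genes had 46 of 62 promoters lower (74.2%), near the share of all promoters, with Kcng3 at 4 and 50.

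Hox genes had a low ratio in their bodies. Of 17 Hox bodies compared, 8 were lower, against 6.71% of all bodies, and the 32 bodies over 3 kb stood at 1.42 times the average in the ChIP and 2.46 times in the input, a ratio of 0.580 (0.520 to 0.646). Hox genes are short, with a median of 4.08 kb, and this interval overlapped that of all genes of 3 to 5 kb, 0.644 (0.621 to 0.668). Only 17 of the 32 bodies held enough tags, and a short body passes the minimum more easily with an excess in a library. The share of 8 in 17 is thus no result about the Hox genes. Their promoters were lower in 20 of 30 (66.7%, against 73.2% of all), with Hoxd9 at 2 ChIP and 36 input tags and Hoxa5 at 8 and 30. C2H2 zinc finger genes, the largest family of transcription factors, had 147 of 222 promoters lower (66.2%) and 12 higher, with Zfp646 at 6 and 57 tags in a window shared with Zfp668 and Zfp292 at 5 and 55.

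**Figure D4:**
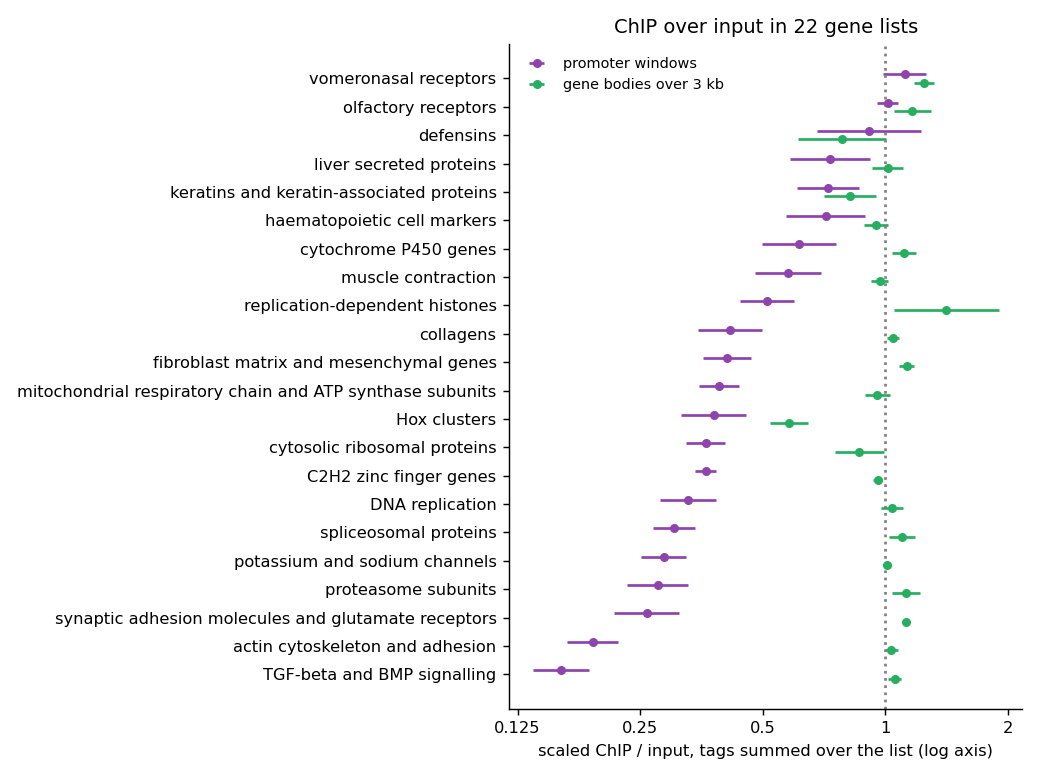
Scaled ratio of wild-type ChIP to input over 22 gene lists on a log axis, with tags summed over all members, in promoter windows and in bodies of genes over 3 kb. Bars are 95% counting intervals. Promoter ratios run from 0.160 for TGF-beta and BMP signalling to 1.12 for vomeronasal receptors, while most bodies lie near 1 and Hox genes stand at 0.580.

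The NFI palindrome was searched as TTGGCANNNTGCCAA, allowing up to 2 mismatches among the 12 bases that are not N. It is its own reverse complement, so that a search of 1 strand covers both. Chromosomes 1 to 19 held 99071 matches, 150 of them without mismatch. Of all genes, 1526 (7.12%) had a match within 1 kb of the TSS, 2 of them without mismatch. Those 2 are shown with 7 bases on both sides and the fixed positions in capitals.
Zfp120, chr2:149962042-149962070, minus strand: aatacccTTGGCAggaTGCCAAactcgga
Zfp933, chr4:147222130-147222158, minus strand: atcatccTTGGCAagaTGCCAAactcgaa

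Both genes encode C2H2 zinc finger proteins. The match lay 388 bp inside Zfp120, which had 11 ChIP, 7 input and 7 knock-out tags in its promoter window, and 331 bp inside Zfp933, which had 4, 2 and 13. Their ratios of 1.93 (0.684 to 5.88) and 2.46 (0.353 to 27.2) could not be told from 1 at this depth. In the 1 kb around their TSS, both genes together had a ratio of 3.20 (1.07 to 11.5), or 2.90 (0.970 to 10.4) scaled to tags far from genes, an interval that includes 1.

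Genes with a match within 1 kb had a TSS ratio of 0.282 (0.271 to 0.293), and those without one 0.220 (0.218 to 0.223), a difference of 1.28-fold (1.23 to 1.33) that turned to 0.937 when every uniquely mapped tag was counted. The ChIP stood at 1.58 and 1.49 times its average and the input at 5.59 and 6.74 times, so that the difference was larger in the input than in the ChIP.

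The signal at the matches themselves was compared with the sequence 500 to 1000 bp away on both sides. Within 150 bp of the centre of the 1497 matches that lay within 1 kb of a TSS, the ChIP stood at 1.91 times and the input at 2.51 times, a ratio of 0.760 (0.706 to 0.819). In the flanks the ChIP stood at 1.34 times and the input at 3.48 times, a ratio of 0.384. Mean GC content was 48.3% at the centre and 48.8% in the flanks. The ChIP was thus higher at the matches than beside them while the input was lower, and the ratio differed 1.98-fold (1.82 to 2.16).

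With at most 1 mismatch, 93 matches near a TSS had 2.47 times the average in the ChIP and 1.74 times in the input, a ratio of 1.41 (1.04 to 1.93), and 0.521 in the flanks. Scaled to tags far from genes the former was 1.28 (0.940 to 1.75), so that it could not be told from 1. Elsewhere along genes the ratio at the matches also lay above that of the flanks. At 2063 intronic matches with at most 1 mismatch the ChIP stood at 2.24 times and the input at 1.20 times, a ratio of 1.88 (1.74 to 2.02) against 1.04 in the flanks, and at 173 exonic matches the ratio was 1.76 (1.37 to 2.26) against 0.823. At 2444 matches more than 10 kb from every annotated gene it was 1.91 (1.78 to 2.06) against 1.14. Scaled to tags far from genes, these stayed above 1, at 1.70 (1.58 to 1.83) in introns, 1.59 (1.24 to 2.05) in exons and 1.73 (1.61 to 1.87) far from genes. Scaled to all tags, the knock-out ChIP gave 1.67 in introns, 1.63 in exons and 1.71 far from genes. Near a TSS it gave 1.23 (0.888 to 1.71), an interval that includes 1. Near the TSS the ratio at the matches was low where the flanks were low too. The ratio of centre to flank was 2.72 (1.93 to 3.83) near a TSS, 2.13 (1.60 to 2.85) in exons, 1.80 (1.65 to 1.96) in introns and 1.68 (1.54 to 1.83) far from genes. The intervals of neighbours in this order overlapped, while those near a TSS and far from genes did not. This order does not rank the ChIP itself, since the input changed as well. Near a TSS the input was at 1.74 times at the centre and 3.09 times in the flanks, against 1.20 and 1.15 times in introns. The ChIP was at 2.47 and 1.61 times near a TSS and at 2.24 and 1.20 times in introns. With at most 2 mismatches the order differed, at 1.98 near a TSS, 1.23 (1.14 to 1.32) in exons, 1.26 (1.23 to 1.29) in introns and 1.19 (1.16 to 1.22) far from genes.

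**Figure D5:**
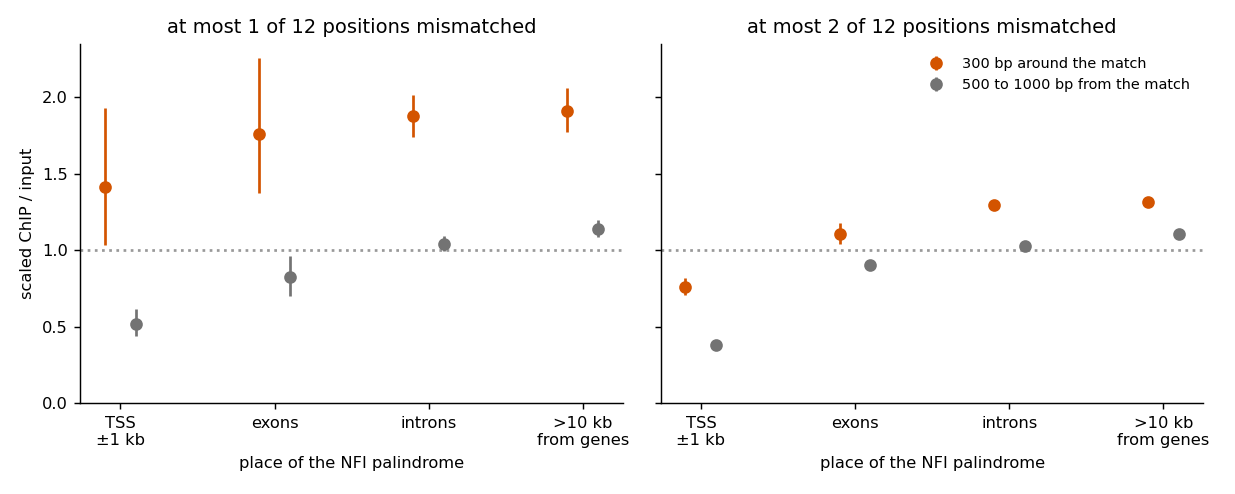
Scaled ratio of wild-type ChIP to input at matches to the NFI palindrome, within 150 bp of its centre and 500 to 1000 bp from it, by place of the match, for at most 1 (left) and at most 2 (right) mismatches. Bars are 95% counting intervals. In each place the ratio at the match lies above that of its flanks, and near the TSS both lie lowest.

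The sites that the authors called from the wild-type ChIP tags, 38625 of them on these chromosomes, gave a profile unlike that of the ratio. The 1 kb before the TSS held 1279 sites, 3.70 times the genome average, and the 1 kb after it 1124 sites, 3.25 times. Promoter windows held 5.23 times the average in CpG-rich genes and 1.25 times in CpG-poor genes, and gene bodies 1.24 times. Site density was thus high around the TSS, where the ratio to the input was low. The sites were selected on the ChIP tags, so that these values are a description of the list.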

How the data were processed

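Primary MEFs were cross-linked, and their chromatin was sonicated to a mean of 1000 bp. Libraries of the NFI precipitate and of input DNA were amplified for 18 cycles and sequenced as 35 bp (ChIP) and 36 bp (input) reads. The authors mapped the reads with ELAND to mm9 and pooled the runs of a library; the version is not given in the sources used here. The deposited files list 1 read per line with its match code, position and strand, with no score or normalization by the authors. Unique matches were 68.1% of the reads in the wild-type ChIP and 45.1% in the input. The authors also deposited their in vivo sites and the boundaries of histone-modified regions, drawn from published MEF data. Their lamina and miRNA lists were not used here.

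From these files, unique matches were reduced to 1 per position and strand, by their 5′ end, and counted along genes of an annotation of the same build (GENCODE vM1) with Python 3.11.15, NumPy 2.4.6, SciPy 1.17.1 and pandas 2.3.3. Figures were drawn with matplotlib 3.10.9. The TSS and gene end windows span 500 bp on both sides and promoter windows 1 kb. Intervals of ratios between ratios use a normal approximation of the logarithm. A call needs at least 10 tags of both libraries (20 for bodies) and a ratio of at least 2 or at most 0.5, with 0 tags set to 0.5. Genes were named by the limits of their interval, by a palindrome without mismatch, or as the 2 members of a list with the most tags, of which not all are printed. A gene body and a promoter sequence that this rule selects are not reported here. Members and lists were chosen with earlier results of these data known. Counting was tested on simulated data. Alternatives changed the treatment of duplicates, mismatches, tag position, TSS choice, scaling, gene set, GC content, tag minimum and runs.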

Additional observations from a re-analysis of the deposited data

How the results depend on the processing

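Across 84 pairs of a result and an alternative, 28 values stayed within the counting error or 1.5 times the count, 53 moved and 3 reversed. Moving tags by 75 bp changed none of the 7 results it touched. With every uniquely mapped tag, the ratio was 0.256 at the TSS, 0.570 at the gene end and 1.05 in bodies, long over short genes 1.41, CpG-rich over CpG-poor promoters 0.118 and higher promoters 1587, and 2 ratios reversed, plus over minus strand to 0.916 and with over without palindrome to 0.937. With tags without mismatch these were 0.193, 0.859, 1.02, 1.32 and 0.129 for the first 5. With every annotated TSS the TSS ratio was 0.244, plus over minus strand 1.01, CpG-rich over CpG-poor 0.351 and the palindrome comparison 1.16. CpG class and palindrome were then those of the outermost TSS of the gene. Scaled to tags over 10 kb from genes, the TSS ratio was 0.203, the gene end ratio 0.799 and the body ratio reversed to 0.927. In genes isolated by 5 kb, the TSS, gene end and body ratios were 0.249, 0.982 and 1.04, long over short 1.17, plus over minus 1.00, CpG-rich over CpG-poor 0.134 and the palindrome comparison 1.37. Without windows over 10 times the input average, the TSS ratio was 0.463, the gene end ratio 0.931, CpG-rich over CpG-poor 0.311 and the palindrome comparison 1.20. Over intergenic windows of the same GC content, these were 0.662, 0.955, 0.478 and 1.13, and the body ratio was 1.01. Higher promoters numbered 19 with at least 20 tags and 1901 with no minimum. For the ChIP runs 1, 2 and 3 alone, the TSS ratio was 0.236, 0.200 and 0.195 and the body ratio 1.03, 1.02 and 1.02. The gene end ratio was 0.931 in run 1, and in runs 2 and 3 long over short was 1.33 in both and CpG-rich over CpG-poor 0.132 and 0.126. For the input runs 1 and 2 alone, the TSS ratio was 0.249 and 0.197, long over short 1.25 and 1.32 and CpG-rich over CpG-poor 0.173 and 0.137, with a gene end ratio of 0.834 in run 2. The causes were not tested. The TSS choice, isolation, heavy windows and GC content also changed the set of genes or sites, and heavy windows were left out by their input, the divisor of the ratio. The TSS ratio stayed below 1 under each alternative. No paired analysis was possible because each condition had a single library. The higher promoters held few tags, a median of 12 against 29 in the lower ones, and the part of depth in their number was not tested.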
